A study of Mus musculus with 20 samples.

Results

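The potassium channel subunit genes were examined in the frontal cortex of mice carrying the Q331K change in TDP-43. They were taken as the rows of the gene table whose name begins with Kcn followed by letters, in most cases with a number, 94 rows in all. Kcna1, Kcnc1, Kcnc2, Kcnab3, Kcnip2 and Kcnj13 were left out by name. A mean of at least 0.5 CPM (counts scaled to a TMM-adjusted library total) over the 20 libraries was then required, which removed another 18 rows. The remaining 70 genes are called members here, out of 25965 rows in the table and 16690 genes tested. All 70 passed the filter on low counts, so none of them was lost before the test. Nearest the limit, Kcnk5 (0.625 CPM) and Kcnmb1 (0.718 CPM) lay just inside, and Kcnj5 (0.346 CPM) and Kcnq1 (0.335 CPM) just outside. Kcnk16 and Kcnk18 had no count in any library.

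The study sequenced polyA RNA from snap-frozen frontal cortex of 5-month-old mice on a C57BL/6 background. TDP-43, encoded by Tardbp, is an RNA-binding protein that forms aggregates in amyotrophic lateral sclerosis and frontotemporal dementia, and Q331K is a change found in patients. The mice were knock-in animals, so the change sat in the mouse's own Tardbp gene. Wild-type mice (+/+, 0 changed alleles) gave 6 libraries, heterozygotes (Q331K/+, 1 allele) gave 6 and homozygotes (Q331K/Q331K, 2 alleles) gave 8. The labels give no sex, litter or batch, and they describe separate samples without naming the animals, so a p-value here reflects only how these samples scatter, which may be technical. Ddx3y, a gene of the Y chromosome, lay between 40.6 and 53.6 CPM in every library. Xist, the RNA of the inactive X chromosome, reached at most 0.153 CPM, so all libraries read as male.

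Potassium channels let potassium leave neurons and glia, and so set the resting potential, end the action potential and limit repetitive firing. Voltage-gated channels (Kcna, Kcnb, Kcnc, Kcnd, Kcnq, Kcnh) open on depolarisation, inward rectifiers (Kcnj) and tandem-pore-domain leak channels (Kcnk) act near rest, and the Kcnn, Kcnma1 and Kcnt channels respond to internal calcium or sodium. Silent subunits (Kcnf, Kcng, Kcns, Kcnv) form no current alone and join Kcnb subunits, while auxiliary subunits (Kcnab, Kcnip, Kcne, Kcnmb) line no pore and alter the gating or trafficking of the channels they bind.

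Library totals ran from 61282647 to 111440766 counts, and a member's count in a single library ran from 16 to 62719. Tardbp itself averaged 218 ± 5.53 CPM (SD, n = 6) in wild type, 230 ± 7.58 (n = 6) in heterozygotes and 245 ± 10.5 (n = 8) in homozygotes. The cortical neuron markers Slc17a7 and Camk2a and the glial markers on the lists used here had counts in every library. Some libraries also held more of neighbouring tissue. Heterozygous replicate 1 reached 673 CPM in the summed striatal markers, against a heterozygous median of 305. Heterozygous replicate 2 and homozygous replicates 1, 2 and 4 had an ependymal marker score over 0.5, and olfactory bulb markers summed to as much as 86.5 CPM in homozygotes against 23.9 in wild type. The homozygous comparison kept Kcnab2, Kcng4 and Kcnk1 as its 3 calls without heterozygous replicate 1, and called these and Kcnj10 without the 4 libraries of high ependymal score.

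Members differed widely in level. Together they summed to 4762 ± 102 CPM (SD, n = 6) in wild type, 4712 ± 71.4 (n = 6) in heterozygotes and 4627 ± 122 (n = 8) in homozygotes. As a share of the raw counts, with no TMM scaling, they took 0.470%, 0.471% and 0.468%, so the step down in the sum was seen only after scaling. By mean CPM, 16 members lay over 100, 35 between 10 and 100, and 19 under 10. Per kilobase of exon, which allows levels of different genes to be compared, Kcnab2 stood highest at 76.8 CPM per kb. It was followed by the inward rectifiers Kcnj9 (47.4), a subunit of G-protein-gated channels, Kcnj10 (45.8), the main astrocyte channel, and Kcnj4 (43.8), and then by the leak channel Kcnk1 (39.2). The lowest was Kcnmb1 at 0.171, a subunit of the calcium-activated BK channel best known from smooth muscle. The highest member exceeded the lowest 449-fold. The plot of level per length shows that members of a family differ from each other in level far more than the genotypes differ for a given gene.

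**Figure D1:**
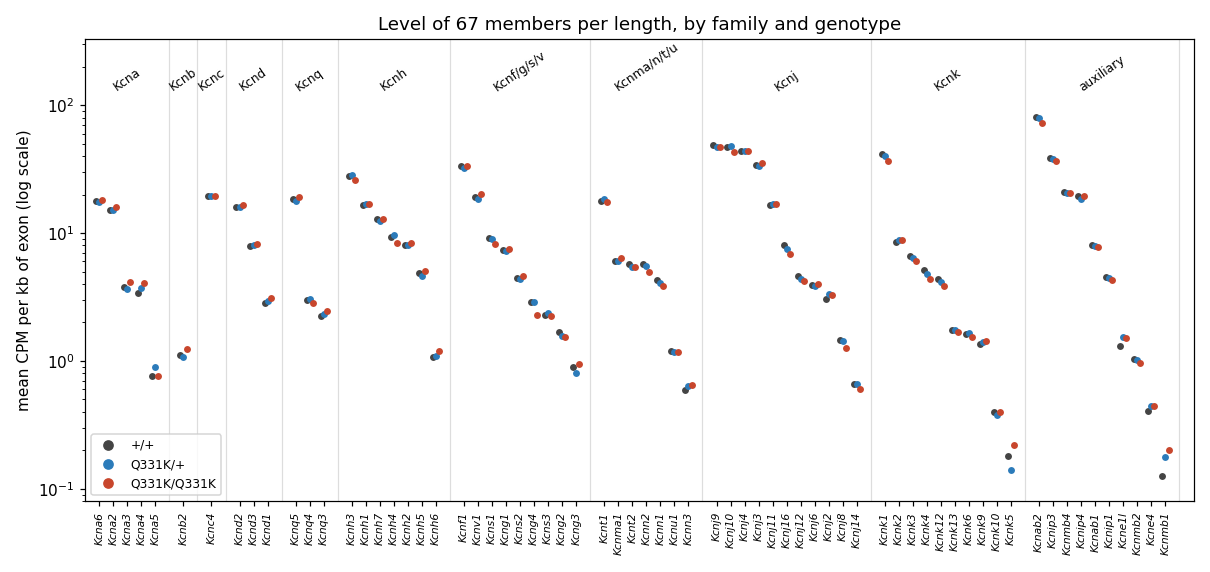
Mean CPM per kilobase of exon (log scale) of 67 members in the 3 genotypes, ordered by level within each family. Kcnab2 is the highest at about 76.8 CPM per kb and Kcnmb1 the lowest at 0.171, and the 3 points of a gene lie close together for most genes.

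Replicates agreed most closely for the abundant members. The within-genotype SD of log2 CPM had a median of 0.12 over the members, was smallest for Kcnab2 (0.05) and Kcnt1 (0.06), and was largest for Kcnmb1 (0.47) and Kcnk5 (0.70), the 2 members nearest the level limit.

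In homozygotes 3 members were lowered and 0 were raised against wild type at an adjusted p under 0.05 (edgeR's quasi-likelihood test, Benjamini-Hochberg over all genes tested). Over all genes tested 1.56% were called, 0.923% as lowered and 0.641% as raised, beside 3 of 70 (4.29%) among members. That count depended on the fit: it was 9 with DESeq2, 0 with 3 surrogate variables, and between 2 and 6 with single libraries left out, with 6 without wild-type replicate 3 or homozygous replicate 7. The lowered members belong to 3 families: the auxiliary subunit Kcnab2, the leak channel Kcnk1 and the silent subunit Kcng4. At an unadjusted p under 0.05, 15 members (21.4%) were lower, against 8.06% of all genes, and 5 (7.14%) were higher, against 8.05%. By level, the lower ones were 5 of 16 members over 100 CPM, 9 of 35 from 10 to 100 and 1 of 19 under 10. The higher ones were 0, 4 and 1 in these classes, and the all-gene shares were not matched for level. The median log2 change of the members was nonetheless -0.01, against 0.00 over all genes, and 35 members lay on each side of 0, a split that was the same with DESeq2's size factors. The plot of change by family shows this spread, with the 3 called genes among the larger negative values.

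**Figure D2:**
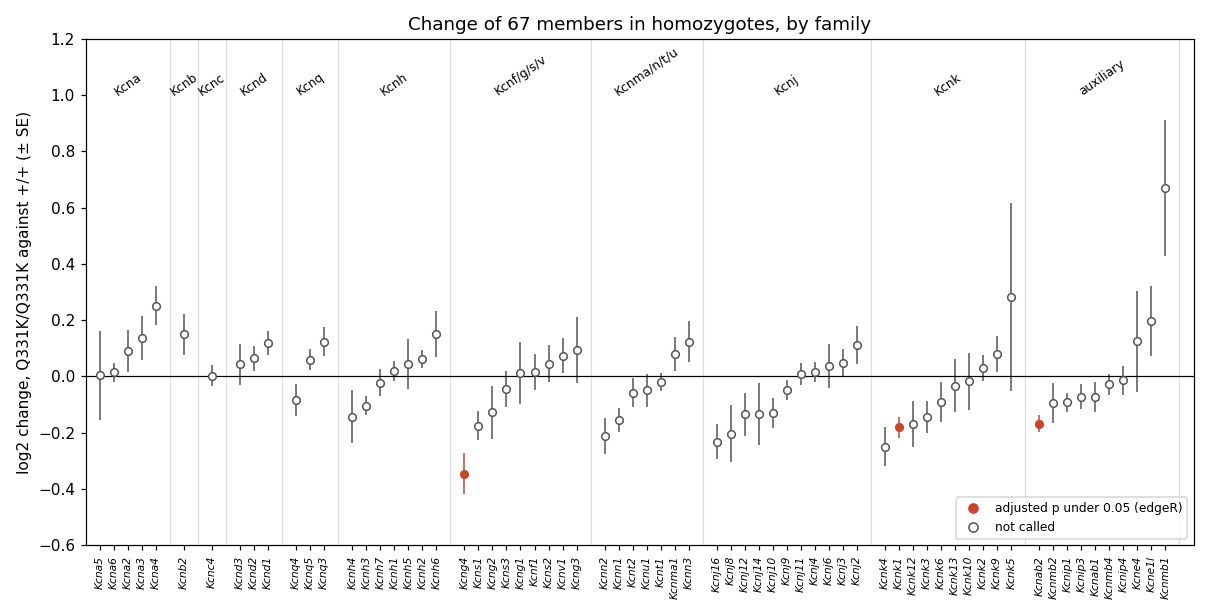
Log2 change (± SE) of each of 67 members in homozygotes against wild type, ordered by size within each family, with filled points for an adjusted p under 0.05. Kcng4 at -0.35, Kcnk1 at -0.18 and Kcnab2 at -0.17 are filled, and Kcnmb1, at 0.67 with a long error bar, is not.

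The 3 called genes are shown with the RefSeq promoter windows nearest to their deposited gene starts, 250 bases before and 50 after a RefSeq start on GRCm38.p6. These sequences are given because the 3 genes moved in the same direction. Capitals mark the matches on either strand of 4 motifs: the GC box GGGCGG, the CCAAT box CCAAT, the TATA box TATAAA and the cAMP response element TGACGTCA. No match overlapped another. Windows are chr4:152477500-152477799 on the minus strand for Kcnab2 (the nearest of 3 RefSeq starts), chr8:125994852-125995151 on the plus strand for Kcnk1 and chr8:119635631-119635930 on the minus strand for Kcng4.
Kcnab2: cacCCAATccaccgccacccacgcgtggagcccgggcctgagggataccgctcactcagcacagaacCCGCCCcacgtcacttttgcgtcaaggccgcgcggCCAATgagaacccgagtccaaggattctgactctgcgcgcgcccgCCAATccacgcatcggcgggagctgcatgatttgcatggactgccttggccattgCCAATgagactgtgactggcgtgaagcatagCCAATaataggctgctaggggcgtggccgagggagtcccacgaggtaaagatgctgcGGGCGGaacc
Kcnk1: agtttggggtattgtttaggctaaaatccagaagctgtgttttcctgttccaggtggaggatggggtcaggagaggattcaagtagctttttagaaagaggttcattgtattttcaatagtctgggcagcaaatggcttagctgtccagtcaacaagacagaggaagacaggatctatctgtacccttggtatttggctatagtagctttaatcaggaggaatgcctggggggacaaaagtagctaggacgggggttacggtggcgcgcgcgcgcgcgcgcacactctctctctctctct
Kcng4: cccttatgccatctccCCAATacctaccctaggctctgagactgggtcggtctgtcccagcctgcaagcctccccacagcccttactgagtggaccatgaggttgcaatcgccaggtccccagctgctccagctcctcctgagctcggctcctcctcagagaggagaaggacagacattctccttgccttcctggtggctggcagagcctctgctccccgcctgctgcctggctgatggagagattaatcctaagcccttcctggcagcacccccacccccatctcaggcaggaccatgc
The 3 windows differed in their matches. Kcnab2 held 5 CCAAT and 2 GC boxes and 25 CpG dinucleotides, Kcng4 held 1 CCAAT box and 4 CpG, and Kcnk1 held no match and 10 CpG, against a median of 7 CpG in all windows. Over the 32851 windows of the table, 35.7% held a GC box, 37.4% a CCAAT box, 13.6% a TATA box and 1.79% a cAMP response element. Of the 70 windows that belonged to the 50 members with an entry, 50% held a GC box, 28.6% a CCAAT box, 4.29% a TATA box and 0 a cAMP response element. A match describes these letters and is not a binding site.

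Kcnab2, ENSMUSG00000028931, encodes the cytoplasmic beta subunit that binds Kcna channels and carries them to the axon. Its locus is on the minus strand of chromosome 4, start 152390742 and end 152477871 (GRCm38). Wild-type libraries held between 431 and 488 CPM with a median of 444, heterozygotes between 425 and 456 with a median of 441, and homozygotes between 387 and 421 with a median of 399. Every homozygous library lay below every wild-type and every heterozygous library. Kcnab2 was the 1 member of 70 with such a separation in either comparison, which 0.515% of all genes showed below wild type and 0.198% below heterozygotes. Its mean fell from 452 ± 22.5 (SD, n = 6) to 403 ± 10.97 (n = 8), a log2 change of -0.17 (SE 0.030) with an edgeR adjusted p of 0.00503. The call was lost with 3 surrogate variables, at -0.11 (edgeR adjusted p = 0.182), and with tissue marker scores as covariates, at -0.14 (edgeR adjusted p = 0.0856). Its relative Kcnab1, at 67.7 CPM, changed by -0.07 and was not called. Another gene on the same strand, Gm16334, overlaps 125 bases of the Kcnab2 exons, where a strand setting cannot separate the reads.

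Kcnk1, ENSMUSG00000033998, encodes TWIK-1, a leak channel found in neurons and astrocytes. Its locus is on the plus strand of chromosome 8, start 125995102 and end 126030683. Wild-type libraries held 88.3 to 102 CPM (median 90.8), heterozygous ones 86.5 to 94.7 (median 89.5) and homozygous ones 73.1 to 88.9 (median 82.5). The homozygous range met the lower edge of the wild-type range through homozygous replicate 2, while the other 7 homozygous libraries lay below all 6 wild-type libraries. The mean went from 92.9 ± 5.13 to 81.9 ± 4.86, a log2 change of -0.18 (SE 0.038, edgeR adjusted p = 0.0157), and with surrogate variables the change was -0.19 (SE 0.047) and no longer called (edgeR adjusted p = 0.0597). An antisense gene, Gm45875, overlaps 179 bases of its exons, and without a stated strand setting reads of the pair cannot be told apart.

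Kcng4, ENSMUSG00000045246, encodes Kv6.4, a silent subunit that joins Kcnb channels. Its locus is on the minus strand of chromosome 8, start 119623854 and end 119635680. It had the largest decrease among members: 9.72 to 12.2 CPM (median 10.9) in wild type, 10.1 to 12.5 (median 10.8) in heterozygotes and 7.38 to 10.2 (median 8.38) in homozygotes. Heterozygotes matched wild type in mean (10.99 CPM each), and homozygous replicates 2 and 4 lay inside the wild-type range while the other 6 lay below it. The log2 change in homozygotes was -0.35 (SE 0.074, edgeR adjusted p = 0.0165). It was lost without wild-type replicate 5 (edgeR adjusted p = 0.0557), without wild-type replicate 6 (0.0530) and with surrogate variables (0.180).

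Some markers of parvalbumin interneurons, fast-firing inhibitory cells, were also lower in homozygotes. Of the 10 genes on that list, which holds no Kcn gene, Pvalb, Syt2, Vamp1 and Cox6a2 were lowered in homozygotes and none was raised. The other 6 were not called, with Cplx1 (-0.11), Eya4 (-0.11) and Erbb4 (-0.02) below 0 and Pthlh (0.11), Adamts15 (0.10) and Sulf1 (0.07) above it. The list summed to 1197 to 1379 CPM in the wild-type libraries, 1212 to 1271 in the heterozygous and 1073 to 1192 in the homozygous ones, and no marker was at 0 in any library. None of the 8 genes of the general GABAergic list or the 9 excitatory markers was called. The part of the parvalbumin markers in the decreases of Kcnab2, Kcng4 and the other lower members was not tested. In whole tissue, fewer cells of a type and less RNA per cell cannot be told apart.

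**Figure D3:**
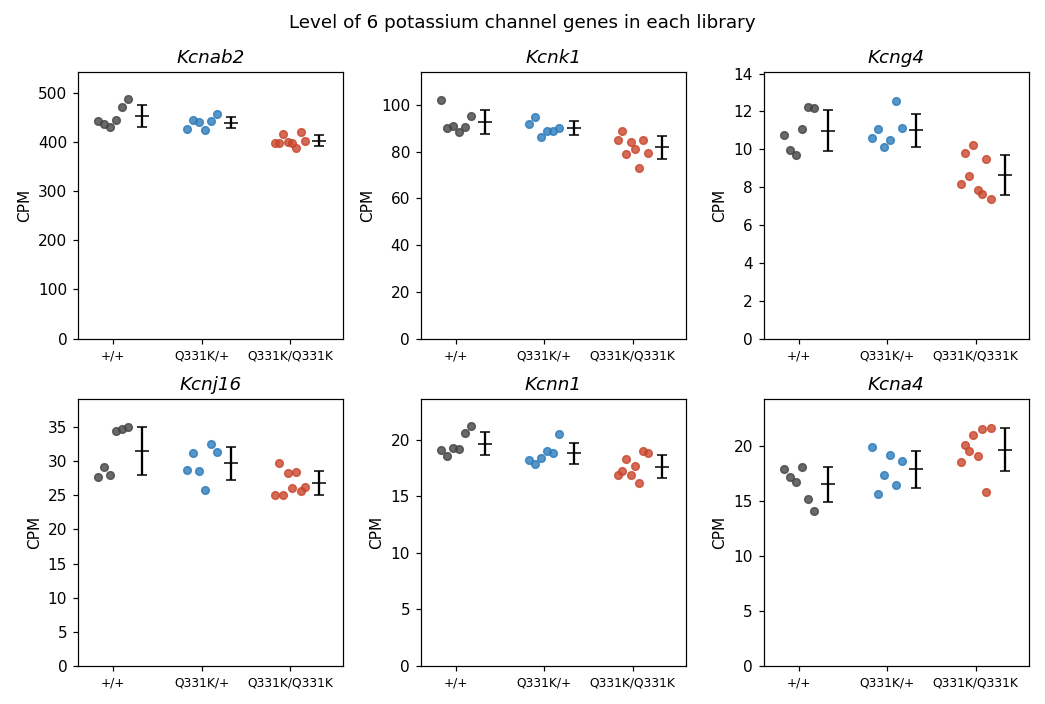
CPM in each library for 6 members, with the mean ± SD of each genotype (6 +/+, 6 Q331K/+ and 8 Q331K/Q331K libraries) beside the points and axes starting at 0. The 8 homozygous Kcnab2 libraries lie between 387 and 421 CPM, below the other 12, while the genotypes overlap for the other 5 genes, including Kcna4, whose homozygous mean is the highest of the 3.

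Over 0, 1 and 2 changed alleles, the trend was called for 5 members, each time as falling. For Kcng4 the change from wild type to heterozygotes was 0.0010, so its falling trend rested on the homozygotes. Over all genes 1.83% were called, 1.05% with a falling and 0.779% with a rising trend. At an unadjusted p under 0.05, 16 members (22.9%) had a falling and 5 (7.14%) a rising trend, beside 8.34% and 8.43% of all genes. The 5 were Kcnab2 (-0.09 per allele on the log2 scale, edgeR adjusted p = 0.00508), Kcnk1 (-0.09, 0.0149), Kcng4 (-0.18, 0.0251), Kcnj16 (-0.12, 0.0453) and Kcnn1 (-0.08, 0.0482). The last 2 were near the limit: leaving out a single library ended the call of Kcnj16 in 13 of 20 cases and that of Kcnn1 in 15 of 20. That of Kcng4 ended in 4 of 20, without wild-type replicate 5 or 6 or homozygous replicate 5 or 6. Without heterozygous replicate 1, and also without the 4 libraries of high ependymal score, the trend called 3 members, Kcnab2, Kcng4 and Kcnk1.

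Kcnj16 encodes Kir5.1, which joins Kcnj10 (Kir4.1) in astrocytes. Wild-type libraries held 27.8 to 34.97 CPM (median 31.8), heterozygotes 25.8 to 32.5 (median 29.95) and homozygotes 25.1 to 29.8 (median 26.2). The ranges overlapped, with 3 wild-type libraries above every homozygous one. Against wild type the log2 change in homozygotes was -0.23 (SE 0.062, edgeR adjusted p = 0.0557). Kcnj10, its partner, ran from 237 to 286 CPM in wild type and 214 to 267 in homozygotes, a log2 change of -0.13 (SE 0.054, edgeR adjusted p = 0.225). None of the 8 astrocyte markers was called, and their sum ran from 3722 to 3974 CPM in wild type, 3558 to 4138 in heterozygotes and 3447 to 4195 in homozygotes. A single abundant gene made up most of that sum. The estimates of the markers in homozygotes went both ways, from -0.31 to 0.25 with a median of 0.07.

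Kcnn1 encodes the small-conductance calcium-activated channel SK1, whose current follows a burst of spikes. It held 18.6 to 21.2 CPM (median 19.2) in wild type, 17.9 to 20.5 (median 18.6) in heterozygotes and 16.2 to 19.0 (median 17.5) in homozygotes. Homozygous replicates 7 and 8 lay inside the wild-type range and the other 6 below it, and the log2 change was -0.16 (SE 0.042, edgeR adjusted p = 0.0586). An antisense gene, A230052G05Rik, overlaps 132 bases of the Kcnn1 exons. Kcnn2 (SK2) had a similar estimate of -0.21 (SE 0.064, edgeR adjusted p = 0.0942), whereas Kcnn3 (SK3) had 0.12 and Kcnma1, the pore of the BK channel, 0.08 (edgeR adjusted p = 0.551). The sodium-activated Kcnt1 (Slack) was at 169 ± 8.01 CPM in wild type and 166 ± 6.72 in homozygotes. In all, 0 of the 7 Kcnma, Kcnn, Kcnt and Kcnu members were called in homozygotes against wild type, beside 1.56% of all genes.

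In the Kcna, Kcnb, Kcnc, Kcnd, Kcnq and Kcnh families no member was called in homozygotes against wild type, beside 1.56% of all genes. All 5 Kcna members, which form the low-threshold channels of axons, had positive estimates, beside 8438 of all 16690 genes tested. Their signs were the same with DESeq2's size factors, which moved the median of all genes only from 0.0013 to 0.0012. The estimates ran from 0.00 to 0.25. Kcna4 (Kv1.4, a rapidly inactivating channel) had the largest, with 14.02 to 18.02 CPM (median 16.9) in wild type, 15.6 to 19.8 (median 18.0) in heterozygotes and 15.8 to 21.6 (median 19.8) in homozygotes. In homozygotes 7 of the 8 libraries lay above all 6 wild-type libraries, and the eighth among them. Its log2 change was 0.25 (SE 0.070, edgeR adjusted p = 0.0667), the smallest adjusted p among the members with a higher estimate. Kcna2 and Kcna6, the most abundant of the 5 members (Kcna1, left out by name, was higher), had 0.09 (edgeR adjusted p = 0.595) and 0.01 (0.882).

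The delayed rectifier Kcnb2, a partner of the silent subunits, had 0.15 (SE 0.072, edgeR adjusted p = 0.307), and Kcnc4, a channel of the family known from fast-firing neurons, had 0.00 (SE 0.037). The 3 Kcnd genes, which carry the A-type current of dendrites, had estimates between 0.04 and 0.12, Kcnd2 at 0.06 and Kcnd3 at 0.04. None of these was called.

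Kcnq3 and Kcnq5 encode subunits of the M-current channels that restrain firing. Their log2 changes were 0.12 (edgeR adjusted p = 0.241) and 0.06 (0.476). The 7 Kcnh members had 3 negative and 4 positive estimates with a median of 0.02, from -0.14 to 0.15. Among them Kcnh3 (Elk2) had -0.10 (SE 0.035, edgeR adjusted p = 0.128) and Kcnh7 (Erg3) -0.02 (edgeR adjusted p = 0.860).

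Silent subunits did not move together. Kcns1, which also joins Kcnb channels, went from 24.9 ± 1.94 to 22.1 ± 1.55 CPM (log2 change -0.17, edgeR adjusted p = 0.0813). Kcnf1, Kcnv1 and Kcns3 had 0.02, 0.07 and -0.04, with edgeR adjusted p-values of 0.933, 0.600 and 0.791. Among the 9 silent members, 4 estimates were negative and 5 positive.

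The 10 Kcnk members had 7 negative estimates (70%, beside 49.4% of all genes tested) and a median of -0.06. In the lower direction 4 had an unadjusted p under 0.05 (40%, beside 8.06%): Kcnk1, Kcnk3 (TASK-1), Kcnk4 and Kcnk12. Kcnk4 (TRAAK, a leak channel opened by membrane stretch) went from 23.1 ± 2.70 CPM in wild type to 19.4 ± 1.67 in homozygotes, a change of -0.25 (SE 0.069, edgeR adjusted p = 0.0661). With surrogate variables the estimate was -0.05 and with tissue marker scores -0.12, and 587 bases of its exons overlap Catsperz on the same strand. Kcnk2 (TREK-1) had 0.03 (edgeR adjusted p = 0.803) and Kcnk13 (THIK-1, the leak channel of microglia) -0.03 (0.900).

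Of the 11 inward rectifiers none was called in homozygotes against wild type. Beside Kcnj10 and Kcnj16, the abundant Kcnj9 (Girk3) had -0.05 (SE 0.035) and Kcnj2 (Kir2.1) 0.11 (SE 0.068). Among the 10 auxiliary members the other 9 were not called. Kcnip1 and Kcnip3, calcium-binding subunits of Kcnd channels, had -0.09 (edgeR adjusted p = 0.177) and -0.07 (0.442), and Kcne1l had 0.20 (0.468). Kcnmb1 had the largest estimate of any member, 0.67 (SE 0.242, edgeR adjusted p = 0.162), at 0.526 ± 0.108 CPM in wild type and 0.841 ± 0.290 in homozygotes, with overlapping ranges.

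In heterozygotes against wild type 0 of the 70 members were called, and 0 had an unadjusted p under 0.05. Over all genes 0 of 16690 (0%) were called, and 1.83% were higher and 1.35% lower at that unadjusted limit. DESeq2 called 0 members. The 3 genes lowered in homozygotes had heterozygous changes of -0.04 (SE 0.032) for Kcnab2, -0.04 (SE 0.041) for Kcnk1 and 0.00 (SE 0.079) for Kcng4. The direction for Kcng4 turned under 6 other settings, with values no lower than -0.06.

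In homozygotes against heterozygotes 0 members were called, against 0.108% of all genes (0.0779% lower and 0.03% higher). At an unadjusted p under 0.05, 13 members (18.6%) were lower, against 6.29% of all genes, and 3 (4.29%) higher, against 4.73%. DESeq2 called 2, Kcnab2 and Kcng4, both lower. Kcng4 had -0.35 (SE 0.074, edgeR adjusted p = 0.0645), Kcnab2 -0.13 (SE 0.030, 0.113) and Kcnk1 -0.14 (SE 0.038, 0.191). Kcng4 was called in this comparison without the 4 libraries of high ependymal score (edgeR adjusted p = 0.0384). This comparison and the one against wild type share the homozygous libraries.

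Proteins that bind, scaffold or oppose potassium channels were followed as a list of 33, of which 31 were tested. In homozygotes 1 was lowered and 0 were raised, beside the 0.923% and 0.641% of all genes. The lowered gene was Abcc9, which encodes SUR2, the regulatory subunit of ATP-sensitive channels built on Kcnj8 (Kir6.1) in mural cells of blood vessels. It held 10.8 to 13.1 CPM (median 11.3) in wild type, 9.95 to 12.6 (median 11.1) in heterozygotes and 8.57 to 10.7 (median 9.72) in homozygotes. The homozygous range lay just below the wild-type one (highest 10.70 against lowest 10.76 CPM), as in 0.515% of all genes, and overlapped the heterozygous one. The log2 change was -0.26 (SE 0.062, edgeR adjusted p = 0.0280). It was lost with tissue marker scores (edgeR adjusted p = 0.264), with surrogate variables (0.364), and without wild-type replicate 1, wild-type replicate 6 or homozygous replicate 5 (up to 0.0967). An antisense gene, 5330439B14Rik, overlaps 158 bases of its exons.

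Kcnj8 itself had -0.20 (SE 0.1001, edgeR adjusted p = 0.320), at 3.70 ± 0.529 CPM in wild type and 3.22 ± 0.341 in homozygotes. None of the 5 mural cell markers was called, and their sum averaged 181 ± 15.8 CPM in wild type and 190 ± 9.98 in homozygotes. Small p-values on the partner list also belonged to Cntnap1, which clusters channels beside nodes of Ranvier (-0.10), the pacemaker channel Hcn4 (0.34) and Lgi3 (-0.12), with edgeR adjusted p-values between 0.109 and 0.141.

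Many neuronal genes are long, and members were also compared by length. The 21 members of at least 100 kb had a median log2 change in homozygotes of 0.03, against 0.02 over the 2283 genes tested of that length. Kcna5 counts among the 21 by its deposited interval of 165640 bases, far longer than its GENCODE M21 gene, and the median was 0.03 without it too. The 49 shorter members had -0.03, against 0.00 over 14407 genes, and the 3 called members were among these. Among the short members 26.5% were lower at an unadjusted p under 0.05 and 6.12% higher, beside 8.41% and 7.18% of all short genes. Among the long members 9.52% were lower and 9.52% higher, beside 5.91% and 13.5%.

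TDP-43 is known to bind repeats of GU in RNA, so annotated transcripts (GENCODE M21) were searched for at least 5 repeats in a row, written TG in the transcript sequences. Such a run occurred in 14 of 70 members (20%) and in 2999 of 16559 tested genes with transcripts (18.1%). The 5 members called in any comparison had none in these transcripts, and sequence removed by splicing was not searched. Of the 5 members that were higher at an unadjusted p under 0.05, 4 held a run (Kcna4, Kcnb2, Kcnmb1 and Kcnq3). Over all genes tested with a run, 8.57% were higher and 9.47% lower at that limit, beside 7.96% and 7.80% of those without one. Of the 15 members that were lower, 3 held a run, Kcnh3 and Kcnj10 among them, as did 7 of the other 50. The longest run of any member, 23 repeats, was in Kcnj10. These groups are small and were not tested against each other. Runs with their neighbouring bases are shown for 2 members of the higher set, both in the 3′ untranslated region, and for Kcnh3, in the coding sequence, with the repeats in capitals.
Kcna4: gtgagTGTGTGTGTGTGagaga
Kcnq3: cacatTGTGTGTGTGtacgc
Kcnh3: tacagTGTGTGTGTGagcac
A run is a stretch of sequence and not a measured binding site.

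The plot of alternatives sets the homozygous change of the 5 members called in any comparison beside its value under each other setting. Each estimate stayed below 0 in every setting drawn. Kcnab2 ranged from -0.11 to -0.18 and Kcng4 from -0.30 to -0.42 over the settings other than single left-out libraries.

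**Figure D4:**
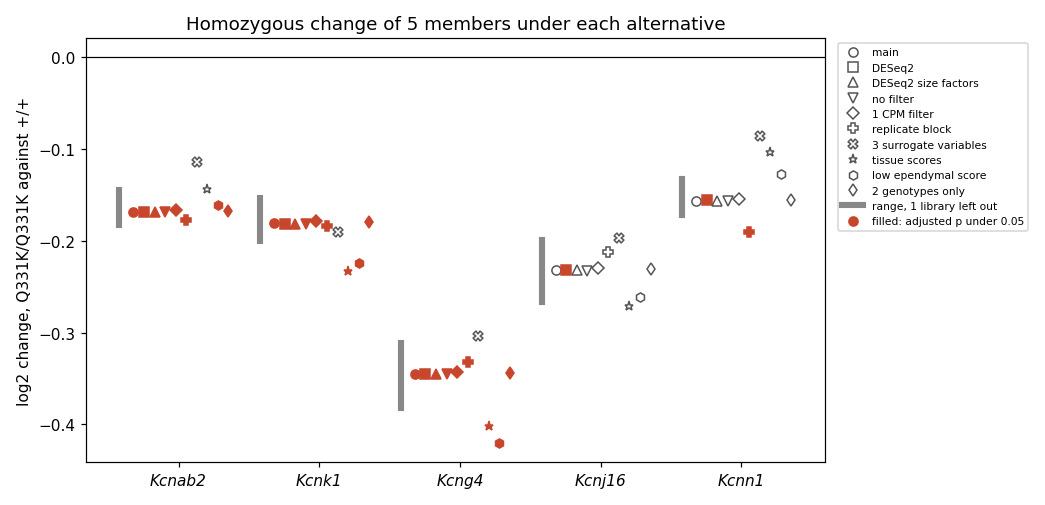
Log2 change in homozygotes against wild type for Kcnab2, Kcnk1, Kcng4, Kcnj16 and Kcnn1 under 10 settings of the analysis, with a grey bar for the range over 20 fits that each leave out 1 library. Filled symbols had an adjusted p under 0.05: 3 surrogate variables give an open symbol for every gene, and the points lie below 0 throughout.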

How the data were processed

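PolyA RNA libraries were prepared with a stranded kit, per the labels' protocols. The submitters' processing notes name Trim Galore 0.4.3, HISAT2 2.0.5 and the build GRCm38. Which program, gene models and strand option produced the counts is not given in the sources used here. The deposited table holds whole-number counts per gene for the 20 libraries, not normalized. From these counts, CPM were computed with TMM-scaled totals. Genes were filtered with filterByExpr, and a quasi-likelihood model (edgeR 4.0.16, R 4.3.3, robust) was fitted to the 20 libraries at once, with genotype as 3 levels or the number of changed alleles as a trend. P-values were adjusted by Benjamini-Hochberg over 16690 genes and called under 0.05. The script was also tested on simulated data. Levels per kilobase used GENCODE M21 exons, limited to the deposited interval for 4 members whose interval was shorter. Of 25909 identifiers, 24990 (96.5%) matched that annotation, and 56 rows had none.

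The fits were repeated with DESeq2 1.42.0, with size factors in place of TMM, with 2 other filters, a replicate block, 3 surrogate variables (sva 3.50.0), marker scores as covariates, libraries left out, and fits of 2 genotypes only. Named members are those called, those of smallest p in each comparison (10 for homozygotes against wild type, 5 for each other), the 2 most abundant of each family, and Kcnj10, Kcnj16, Kcnj8, Kcnk13, Kcnip1 and Kcns3. Kcnab1, Kcnd1, Kcnj4, Kcnk3, Kcnk5, Kcnk12, Kcnn3 and Kcnq3 were named after their values were seen. Some members and partners that the rule names, and some markers, are not reported here and not drawn, though counts and sums include them. Members, marker lists and partner list were chosen with earlier results of these data known. Same-numbered libraries of different genotypes are not stated to be related.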

Additional observations from a re-analysis of the deposited data

Results flagged for a closer look

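In 3 of 99 groups (33 named members in 3 genotypes), the highest library stood apart from the rest by more than Dixon's critical value at 95%. Chance gives this in about 1 in 20 groups, and the 3 lie below that rate. Kcnh7 had 216.3 CPM in wild-type replicate 4, against 189.9 to 199.2 in the other wild-type libraries. Kcnb2 had 19.2 CPM in heterozygous replicate 4, against 15.4 to 16.0, and Kcns3 had 7.83 CPM in heterozygous replicate 3, against 7.44 to 7.54. None of the 3 genes was called in any comparison.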

How the results depend on the processing

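The number of members called in homozygotes against wild type was 3, and 9 with DESeq2, 7 with the replicate block and 0 with 3 surrogate variables. It lay between 2 and 6 when single libraries were left out, with 6 without wild-type replicate 3 or homozygous replicate 7. For homozygotes against heterozygotes it was 0, and 2 with DESeq2 and 1 without the 4 libraries of ependymal score over 0.5. Leaving out single libraries gave 0 to 1, with Kcng4 called without wild-type replicate 6 or homozygous replicate 2, 4 or 7. For the trend it was 5, and 9 with DESeq2, 0 with surrogate variables, 2 with tissue scores (Kcnk1 and Kcnq3) and 3 without the high ependymal scores. Single libraries left out gave 2 to 7, with 2 without wild-type replicate 5 or homozygous replicate 5 or 6, and 3 without wild-type replicate 6, heterozygous replicate 1 or 3, or homozygous replicate 1, 3 or 4. The cause of these differences was not tested. For heterozygotes against wild type it was 0 under every setting run. The summed level averaged 4693 CPM and, by DESeq2 size factors, 4686. Over all genes, DESeq2 called 638 in homozygotes against wild type where edgeR called 261. Surrogate variables gave 117. For the remaining settings and the other comparisons, all-gene counts under the alternatives are not given here. Those member counts therefore have no background beside them.

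The direction reversed for the heterozygous change of Kcng4, which was 0.0010. It became -0.00046 with DESeq2, -0.00048 with its size factors, -0.00080 with no filter, -0.013 with surrogate variables, -0.060 with tissue scores and -0.0038 without the high ependymal scores. It ran from -0.042 to 0.033 when single libraries were left out. Single genes were followed through the settings only for members called, those of smallest p in each comparison, and Abcc9. No other estimate among these changed sign.

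The labels do not say whether replicate numbers pair the libraries. Over 18 same-number pairs the correlation of deviations ran from -0.104 to 0.139, with 1 over 0.1. Its median was 0.044, against -0.006 over 114 other pairs, and 2 of 18 libraries correlated best with their own number. With the replicate block the trend called 6 members, and the 7 called in homozygotes included Kcna4, Kcnab2, Kcng4, Kcnk1, Kcnk4 and Kcnn1.

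Libraries held at least 61282647 counts, and the members of lowest level had few of them, from 16 to 91 for Kcnk5 and from 28 to 113 for Kcnmb1. These 2 also varied most between replicates, and the part of depth in that spread was not tested.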
